A study of Aedes aegypti and Anopheles culicifacies with 47 samples.

Results

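Orco (AAEL005776), Ir25a (AAEL009813), Ir8a (AAEL002922) and Ir76b (AAEL006360) are the 4 chemosensory coreceptor genes described here, in the yellow fever mosquito *Aedes aegypti*. They were taken by gene ID from the 19804 *Aedes* genes in the count files, and all 4 could be read in every file. The files and the reference used here do not pair these IDs with names, so the 4 names rest on the list that defined the set. RNA was sequenced from wild-type females aged 5 to 6 days, kept at 27 ± 2 °C and 80% relative humidity with 12 h of light and 12 h of dark. The 2 tissues were the brain and the pooled olfactory appendages (antennae, maxillary palps, proboscis and labium), dissected at the 4 clock times 6am, 12pm, 6pm and 12am to follow the daily rhythm of gene expression. Brain had 2 libraries at each clock time, while olfactory tissue had 2 at 6am and at 12pm, 3 at 6pm and only 1 at 12am. The other 8 of the 24 *Aedes* samples were not analysed here. The labels do not say how many animals were pooled per library or whether replicates were separate pools, so p-values measure the spread between these libraries, which may be technical.

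Insect odorant receptors and ionotropic receptors are ion channels that open when an odour or taste molecule binds. In both families a tuning receptor, which sets the ligand, works together with a coreceptor shared by many neurons. Orco is the obligate partner of the odorant receptors, and in *Aedes* its loss impairs the preference for human over animal odour. Ir8a and Ir25a are the partners of ionotropic receptors that detect acids, amines, humidity and temperature, and in *Aedes* Ir8a is needed for the response to lactic acid, a component of human sweat. Ir76b is a further partner found in smell and taste neurons. In *Drosophila*, Ir25a is also known to help set the body clock by temperature.

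The number of reads assigned to genes was 5072614 to 10202123 per brain library and 853349 to 6558092 per olfactory library. Levels are given in CPM (counts per 1000000 gene reads of the library). No gene length was used, so a CPM value is compared only between libraries for the same gene, never between genes. In olfactory tissue the most counted gene, AAEL006259, took 9.06 to 18.4% of the gene reads of a library, against at most 3.97% for any gene in brain. Olfactory 12pm replicate 2 stood most apart. It had the lowest mean correlation with the other olfactory libraries (0.869, against 0.888 to 0.920 for the rest, Pearson correlation of log2(CPM + 1) over genes) and the lowest share of reads in genes (41.8%, against 51.9 to 70.1%). The labelled tissues could not be checked against other marker genes, because the IDs of such genes are not paired with names in the sources used here.

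All 4 coreceptors were higher in olfactory tissue than in brain, but by very different amounts. Orco was at 824 ± 293 CPM (SD, n = 8) in olfactory tissue and 0.390 ± 0.451 CPM (SD, n = 8) in brain. Ir25a was at 123 ± 52.7 CPM (SD, n = 8) against 1.58 ± 0.802 CPM (SD, n = 8), and Ir76b at 6.69 ± 4.38 CPM (SD, n = 8) against 0.126 ± 0.105 CPM (SD, n = 8). Ir8a was at 53.9 ± 16.05 CPM (SD, n = 8) in olfactory tissue and 19.6 ± 4.85 CPM (SD, n = 8) in brain, the smallest of the 4 differences as a ratio. For each gene the lowest olfactory library lay above the highest brain library. How many of all genes show such a separation was not counted, so it does not set these 4 apart.

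**Figure D1:**
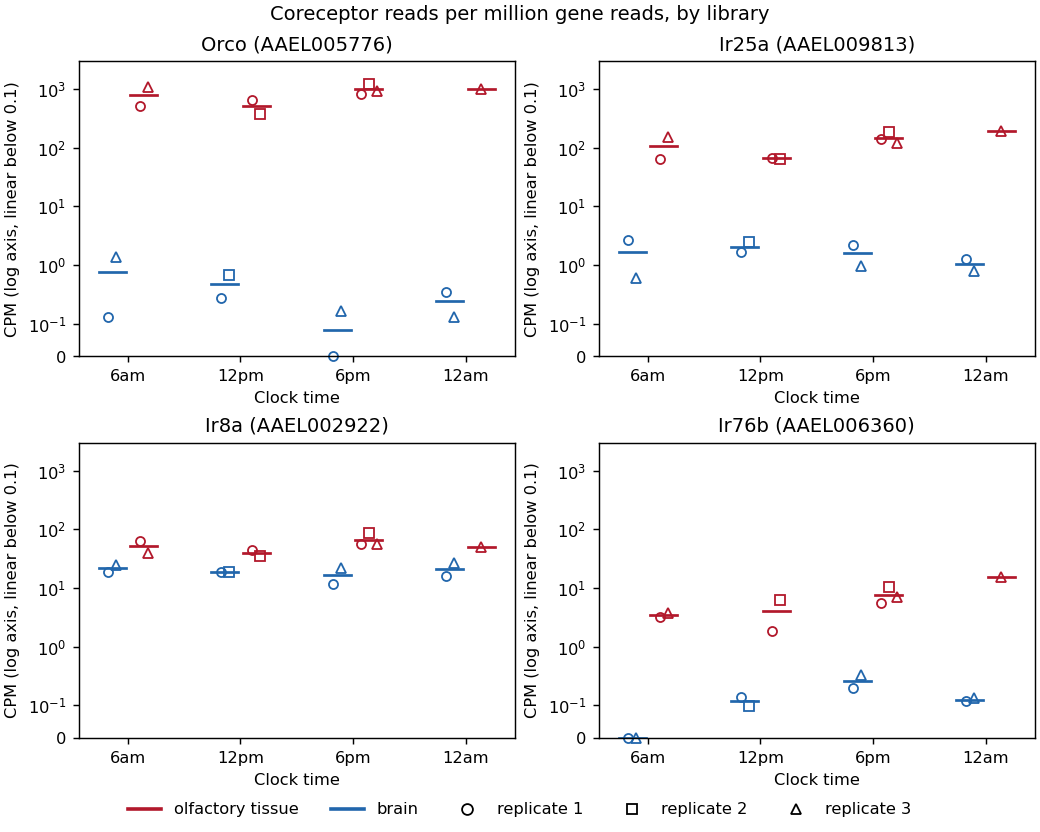
CPM of each coreceptor in every library (y axis, logarithmic above 0.1 CPM and linear below it) by clock time (x axis), with olfactory tissue in red, brain in blue, 1 symbol per replicate number and a bar at the mean. The olfactory points lie above all brain points in each panel, by a narrow margin for Ir8a (35.1 against 26.8 CPM) and by a wide one for Orco (370.4 against 1.38 CPM). The share of all genes with such a separation was not counted.

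The tissue test compared olfactory tissue with brain over the 4 clock times in 1 edgeR quasi-likelihood fit of 11442 genes, with calls at a Benjamini-Hochberg adjusted p under 0.05 and a log2 change of at least 1. It called 52.4% of all genes tested, 30.1% as higher in olfactory tissue and 22.4% as lower, and all 4 coreceptors were among those called higher. The fitted log2 change was 11.89 (SE 0.46, adjusted p = 1.62e-10) for Orco and 6.73 (SE 0.32, adjusted p = 1.31e-09) for Ir25a. It was 6.34 (SE 0.43, adjusted p = 5.51e-08) for Ir76b and 1.93 (SE 0.21, adjusted p = 2.19e-06) for Ir8a. With so large a share of genes called, being called says little about a gene, and the size of the change separates the 4 better. Only 23 of the 11442 genes (0.201%) had a larger change than Orco, 304 (2.66%) a larger one than Ir25a and 387 (3.38%) a larger one than Ir76b, whereas 2622 (22.9%) had a larger one than Ir8a. Without olfactory 12pm replicate 2 the changes were 12.00 for Orco, 6.76 for Ir25a, 6.14 for Ir76b and 1.99 for Ir8a. The fitted change of Orco and Ir76b rests on 22 and 8 brain reads in all, so its size depends on the small count that the fit adds to each library.

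The median change of all genes tested was 0.13 on the log2 scale with TMM scaling and -0.41 on library totals alone. Without TMM the split of called genes turned from 57.3% to 40.3% higher in olfactory tissue, while the 4 coreceptors were still called higher. The Ir8a change was 1.93 with TMM and 1.37 on library totals, and the Orco change 11.89 and 11.35. Relative to the median of all genes, the Ir8a change was 1.80 with TMM and 1.78 on library totals, and the Orco change 11.76 on both scales. Subtracting the median removes a shift shared by all genes, so this closeness was built in and does not show stability. Fewer cells of a type and less RNA per cell cannot be told apart in these bulk samples. The labels do not say whether libraries of both tissues were prepared together, so tissue and preparation cannot be told apart.

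**Figure D2:**
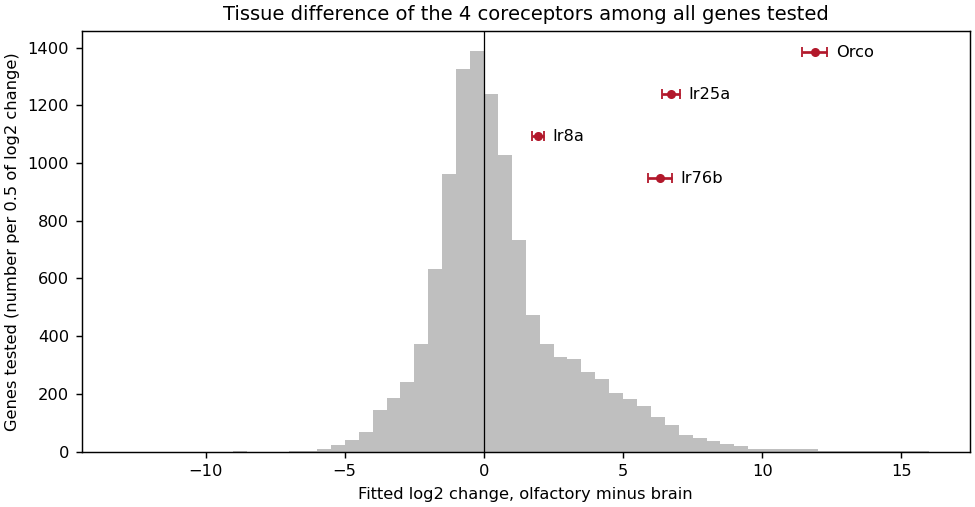
Fitted log2 change, olfactory minus brain (x axis), with the number of genes in each bin of 0.5 (y axis, grey bars, 11442 genes) and each coreceptor as a red point with its SE at an arbitrary height. Orco lies at the far right end of the distribution at 11.89, Ir25a and Ir76b in its right tail, and Ir8a at 1.93, inside the main body.

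Read counts summed over libraries give the brain level as a share of the olfactory level without any fitted offset. For Orco this share was 0.0416% (exact Poisson 95% interval 0.0261 to 0.0630%, 22 brain reads). For Ir25a it was 1.34% (1.10 to 1.62%, 106 brain reads) and for Ir76b 1.77% (0.766 to 3.49%, 8 brain reads). For Ir8a it was 35.6% (33.6 to 37.6%, 1182 brain reads). The intervals cover counting error in the brain reads only. They leave out counting error in the olfactory reads and the spread between libraries. The intervals of Ir25a and Ir76b overlap, and neither overlaps that of Orco or that of Ir8a, which is no test of a difference between genes.

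**Figure D3:**
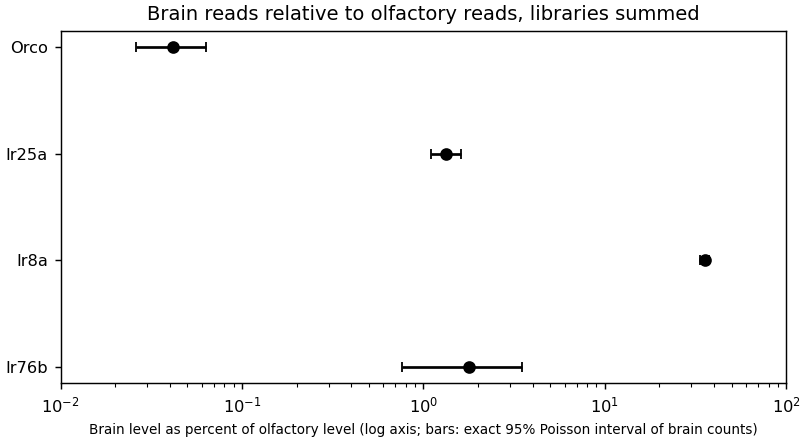
Brain level of each coreceptor as a percent of its olfactory level (x axis, logarithmic), from reads summed over the 8 libraries of each tissue, with exact Poisson 95% intervals of the brain counts. The shares run from 0.0416% for Orco through 1.34% for Ir25a and 1.77% for Ir76b to 35.6% for Ir8a.

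Because Ir8a differed so much from the other 3, its reads were set against theirs within each library, where scaling plays no part. This comparison was chosen because that pattern had been seen, so it is a description with no test. In brain there were 523 to 4200 Ir8a reads per 100 Ir25a reads, and in olfactory tissue 26.2 to 98.3. The log2 ratio of Ir8a to Ir25a, with 0.5 added to each count, was 3.69 ± 1.05 (SD, n = 8) in brain and -1.10 ± 0.643 (SD, n = 8) in olfactory tissue. The means differed by 4.79, and by 9.86 for the ratio of Ir8a to Orco and 3.65 for Ir8a to Ir76b. The groups did not overlap for any of the 3 ratios. That separation largely restates the smaller tissue change by which Ir8a was picked, and how many other gene pairs separate was not counted. The brain ratio of Ir8a to Ir76b rests on 0 to 2 Ir76b reads per library. At the brain share of Orco, brain would hold 1.38 Ir8a reads where 1182 were counted, and 3.29 Ir25a reads where 106 were counted. For Ir76b it would hold 0.188 reads where 8 were counted. This is arithmetic on summed reads, and the origin of the brain reads was not tested. Reads that a neighbouring or overlapping gene may lend to Ir8a could not be told apart, since neither the strand setting nor the gene models are given in the sources used here.

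In brain, Orco reads were near the limit of detection at every clock time. Orco had 1 and 7 reads at 6am, 2 and 7 at 12pm, 0 and 1 at 6pm, and 3 and 1 at 12am. The library with 0 reads, 6pm replicate 1, allows up to 0.301 CPM at 3 counts. Orco was therefore seen in 7 of 8 brain libraries, at no more than 1.38 CPM. Ir76b had 0 reads in both 6am libraries, 1 in each at 12pm, 2 in each at 6pm and 1 in each at 12am. It was seen in 6 of 8 brain libraries, at no more than 0.323 CPM. Neither gene passed the filter on low counts for the clock time test in brain.

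Ir25a had 0.591 to 2.72 CPM in brain, with a median of 1.48, from 3 to 25 reads per library. Its levels were 2.72 and 0.591 CPM at 6am, 1.66 and 2.45 at 12pm, 2.21 and 0.970 at 6pm, and 1.29 and 0.792 at 12am. The 6am pair alone spanned the whole range, so the order of the clock times was not distinguishable from the spread. Ir8a had 11.5 to 26.8 CPM in brain, with a median of 18.5, from 115 to 203 reads per library. Its levels were 18.5 and 24.8 CPM at 6am, 18.4 and 18.5 at 12pm, 11.5 and 21.8 at 6pm, and 16.2 and 26.8 at 12am. Counting error on the lowest of these, 6pm replicate 1, was 9.52 to 13.8 CPM (exact Poisson 95% interval), and on the highest, 12am replicate 3, 23.2 to 30.7 CPM. Neither gene passed the test for a difference between clock times in brain (edgeR quasi-likelihood F-test, adjusted p = 1.00 for both, where 0.0104% of 9578 genes were called). The largest fitted difference between 2 clock times was 0.98 on the log2 scale (SE 0.76) for Ir25a, 12pm over 12am, and 0.34 (SE 0.39) for Ir8a, 6am over 6pm. With the replicate number as a block the Ir25a difference was 0.15 and the Ir8a difference 0.40. Without 6pm replicate 1 the Ir8a difference changed direction, to -0.069, and without 6pm replicate 3 it was 0.91.

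The brain levels of both genes split by replicate number. The 3 libraries numbered 3 (at 6am, 6pm and 12am) had 24.8, 21.8 and 26.8 CPM of Ir8a, all above the other 5 libraries at 11.5 to 18.5 CPM. The same 3 had 0.591, 0.970 and 0.792 CPM of Ir25a, all below the other 5 at 1.29 to 2.72 CPM. Of the 9578 genes tested, 7.67% had the libraries numbered 3 above all others and 8.43% had them below. The labels do not say what a replicate number marks, the split was noticed in the values, and it was not tested. The 12pm libraries were numbered 1 and 2, so number and clock time were not balanced in the brain fit without a block.

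In olfactory tissue, none of the 4 coreceptors passed the test for a difference between clock times, which called 0.0503% of 9948 genes (5 genes). Set against 6am alone, the test called 0.0302% of genes higher and 0.0603% lower at 6pm and 0% in either direction at 12pm and 12am (edgeR, 312 and 257 genes at an unadjusted p below 0.05), and none of these was a coreceptor. The adjusted p was 0.897 for Orco, 0.881 for Ir25a, 0.929 for Ir8a and 0.881 for Ir76b (edgeR quasi-likelihood F-test). Over the alternatives tried it was 0.648 to 1.00 for Orco, 0.299 to 1.00 for Ir25a, 0.715 to 1.00 for Ir8a and 0.565 to 1.00 for Ir76b, DESeq2 included. Without 12pm replicate 2 it was 0.999 for each. A change of the size of the standard errors below could not be told from the spread in this design. Log2 differences well above their standard error also went uncalled. Examples are Ir25a at 12am over 12pm (1.34, SE 0.49) and Ir76b at 12am over 6am (1.86, SE 0.79). Both rest on the single 12am library. The lack of calls therefore does not show that the coreceptors kept a steady level over the day.

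Orco, which every odorant receptor needs, had 505 and 1087 CPM at 6am, 660.3 and 370.4 at 12pm, 835, 1226 and 917 at 6pm, and 992 in the single 12am library. The 12pm libraries were low and the 6pm libraries high. Of the 6am libraries, the one at 505 CPM lay within the 12pm range and the one at 1087 CPM within the 6pm range. The order of the means was 6pm (993 ± 206 CPM, SD, n = 3), 12am (992), 6am (796 ± 412, SD, n = 2) and 12pm (515 ± 205, SD, n = 2). No neighbours in that order differed beyond their spread. The fitted log2 change from 6am was -0.69 (SE 0.46) at 12pm, 0.08 (SE 0.42) at 6pm and 0.08 (SE 0.56) at 12am. Between 12pm and 12am, the lowest and highest in the fit, it was 0.77 (SE 0.55), and 0.43 without 12pm replicate 2 or 1.29 without 12pm replicate 1.

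Ir25a, the more widely used of the Ir coreceptors, had 63.9 and 153 CPM at 6am, 67.8 and 64.1 at 12pm, 138, 185 and 120 at 6pm (119.7 to 185.2), and 189 at 12am. The 12pm libraries and 6am replicate 1 were low and close together, and the other 5 were all at 119.7 CPM or more. The order of the means was 12am (189), 6pm (148 ± 33.7 CPM, SD, n = 3), 6am (109 ± 63.3, SD, n = 2) and 12pm (65.9 ± 2.63, SD, n = 2), and the 6am libraries reached across the gap between 12pm and 6pm. The fitted log2 change from 6am was -0.77 (SE 0.42) at 12pm, 0.19 (SE 0.38) at 6pm and 0.57 (SE 0.50) at 12am. From 12pm to 12am it was 1.34 (SE 0.49), the largest change among Orco, Ir25a and Ir8a in these fits, and it rests on 1 library at 12am.

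Ir8a, the coreceptor of acid-sensing receptors, had 62.8 and 40.1 CPM at 6am, 45.0 and 35.1 at 12pm, 55.5, 86.7 and 56.0 at 6pm, and 49.6 at 12am. Its highest library was 6pm replicate 2, the shallowest of all with 74 Ir8a reads and an exact Poisson 95% interval of 68.1 to 109 CPM. Its mean was highest at 6pm (66.1 ± 17.9 CPM, SD, n = 3), followed by 6am (51.5 ± 16.02, SD, n = 2), the 12am library (49.6) and 12pm (40.1 ± 7.02, SD, n = 2). No neighbours in that order were apart by more than their spread. The fitted log2 change from 6am was -0.45 (SE 0.41) at 12pm, 0.06 (SE 0.37) at 6pm and -0.32 (SE 0.49) at 12am.

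Ir76b, the partner shared by smell and taste neurons, had few reads even in olfactory tissue, from 4 to 66 per library. It was at 3.25 and 3.78 CPM at 6am, 1.86 and 6.14 at 12pm, 5.64, 10.5 and 7.01 at 6pm, and 15.3 at 12am. The 12am library was the highest and 12pm replicate 1, with 4 reads, the lowest. Its means were 15.3 CPM at 12am, 7.73 ± 2.53 at 6pm (SD, n = 3), 4.00 ± 3.03 at 12pm (SD, n = 2) and 3.51 ± 0.374 at 6am (SD, n = 2). The fitted log2 change from 6am was 0.0033 (SE 1.01) at 12pm, 0.79 (SE 0.67) at 6pm and 1.86 (SE 0.79) at 12am. The last had an unadjusted p of 0.0350 (edgeR) and an adjusted p of 1.00, and 257 of 9948 genes had an unadjusted p under 0.05 in that contrast. It too rests on the single 12am library, whose exact Poisson 95% interval for Ir76b was 11.8 to 19.5 CPM.

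**Figure D4:**
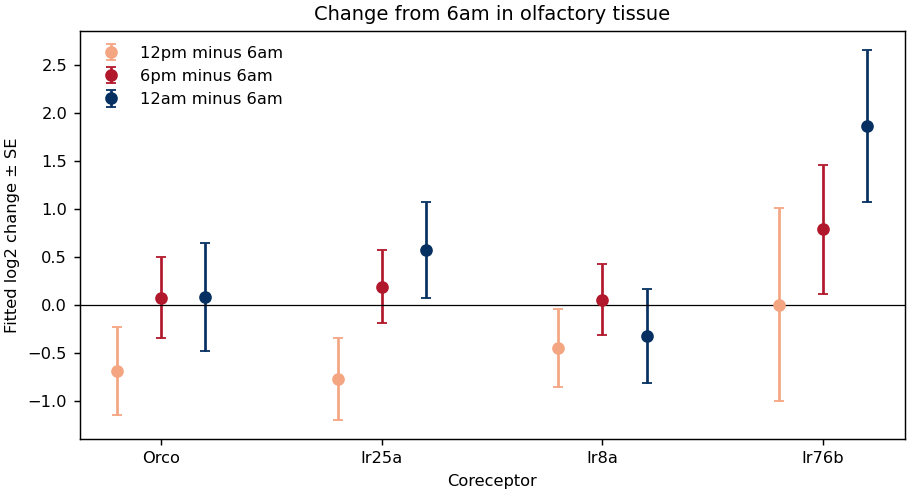
Fitted log2 change of each coreceptor in olfactory tissue at 12pm, 6pm and 12am relative to 6am (y axis), with SE bars, from the edgeR fit of 8 libraries. Orco, Ir25a and Ir8a lie below 0 at 12pm (-0.69, -0.77 and -0.45), and Ir76b is highest at 12am (1.86), but no point passed after adjustment.

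The 12pm and 6pm libraries can be compared one by one. For Orco, Ir25a and Ir8a both 12pm libraries lay below all 3 of the 6pm libraries, and for Ir76b they overlapped. Such a pattern was common, since 22.4% of the 9948 genes showed it in CPM and 10% showed the opposite. After TMM scaling 16% of genes showed it, Orco and Ir25a among them, and 15.2% showed the opposite, so the lean of all genes was nearly gone, and Ir8a no longer showed it. Over all listed reads, 28.1% of genes and all 4 coreceptors showed it. Between 6am and 6pm, Ir76b alone had both 6am libraries below all 6pm ones in CPM, as 20.1% of all genes did (5.26% above). After TMM scaling 10.5% of all genes lay below and 11.8% above, with Ir76b still below. Over all listed reads Ir8a did so as well, as 17.6% of all genes did.

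Reads of the Ir coreceptors per 100 Orco reads show which of them kept pace with Orco from library to library. Ir25a stayed within 10.3 to 19.1 reads per 100 Orco reads, a 1.86-fold range, although CPM ranged 3.31-fold for Orco and 2.96-fold for Ir25a. Ir8a ranged from 3.69 to 12.4 reads per 100 Orco reads, a 3.37-fold range that was wider than the 2.47-fold range of its own CPM. Both extremes were 6am libraries, with 12.4 in replicate 1 and 3.69 in replicate 3. Ir76b ranged from 0.281 to 1.66 reads per 100 Orco reads, both of them 12pm libraries with 4 and 7 Ir76b reads. These ratios describe libraries, not clock times, and were not tested.

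**Figure D5:**
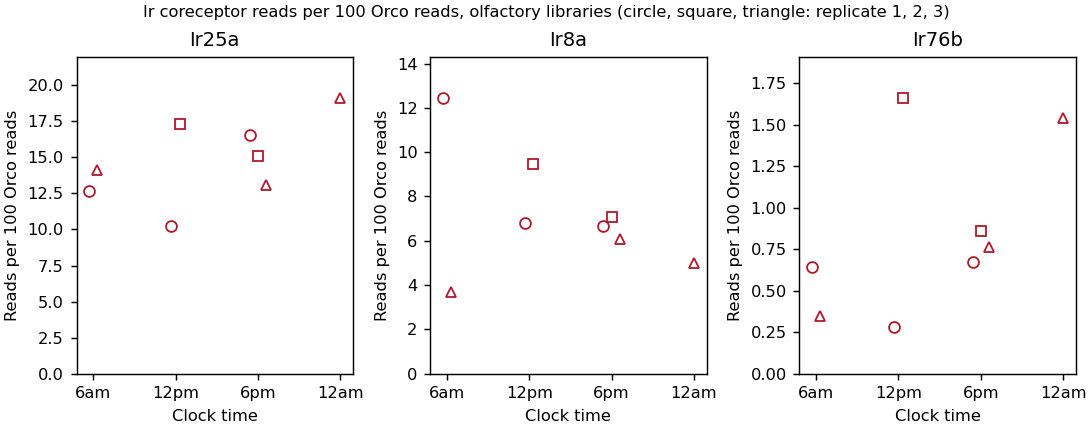
Reads of Ir25a, Ir8a and Ir76b per 100 Orco reads (y axes, from 0) in each olfactory library by clock time, with circles, squares and triangles for replicates 1, 2 and 3. Ir25a spans 10.3 to 19.1, whereas Ir8a spans 3.69 to 12.4 within the 6am libraries alone.

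Whether the change over clock times differed between the tissues was tested in 1 edgeR fit of all 16 libraries. It called 0% of the 11442 genes, with 367 below 0.05 before adjustment. DESeq2 called 19. Neither called Orco or Ir25a, edgeR called neither Ir8a nor Ir76b, and DESeq2 gave no adjusted p for those last 2 genes. The adjusted p was 0.972 for each (edgeR), and 0.366 to 1.00 for Orco, 0.488 to 1.00 for Ir25a, 0.796 to 1.00 for Ir8a and 0.662 to 1.00 for Ir76b over the alternatives that gave one. Levels in olfactory tissue were also divided by those in brain, from summed reads over summed gene reads, without TMM scaling. For Ir25a this ratio was 54.8-fold in the 6am libraries, 31.3-fold in those of 12pm, 75.4-fold in those of 6pm and 179-fold at 12am. At 12am the olfactory side of the ratio is 1 library for every gene. The exact 95% intervals, for counting error only, were 36.4 to 86.3, 22.0 to 45.7, 51.9 to 114 and 111 to 309. For Ir8a it was 2.52-fold (2.12 to 3.00) at 6am, 2.25-fold (1.83 to 2.76) at 12pm, 3.76-fold (3.25 to 4.38) at 6pm and 2.34-fold (1.97 to 2.79) at 12am. Orco was 1212-fold higher at 6am (8 brain reads), 1084-fold at 12pm (9 brain reads) and 3994-fold at 12am (4 brain reads, interval 1559 to 14665). At 6pm its 1 brain read gives a ratio of 14797 with an interval of 2655 to 584494. Ir76b had 0 brain reads at 6am, where a floor of 3 counts over both libraries gives a ratio of 14.8-fold or more. That figure leaves out counting error in its 17 olfactory reads. The Ir76b ratio was 29.1-fold (6.35 to 270) at 12pm, 27.7-fold (10.4 to 104) at 6pm and 123-fold (32.8 to 1039) at 12am. These rest on 2, 4 and 2 brain reads.

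The genes whose levels followed each coreceptor most closely over the 8 olfactory libraries were found by Pearson correlation of log2(CPM + 1) among 8150 other genes with a mean of at least 5 CPM. These are descriptions over libraries that share tissue, depth and scaling, and no p is given because the closest genes were picked from all of them. Among the coreceptors themselves, Ir25a was the one closest to Orco (0.908), and 178 other genes were closer. Ir8a (0.478) and Ir76b (0.419) followed Orco less closely. Closest to Orco were AAEL012987 (0.986) and AAEL025065 (0.982), and 205 genes reached 0.9. Closest to Ir25a were AAEL003548 (0.983) and AAEL004048 (0.983), and 215 genes reached 0.9. AAEL004048 had 76.4 to 209 CPM in olfactory tissue and a mean of 0.151 CPM in brain. AAEL003548 had 21.9 to 53.8 CPM in olfactory tissue and a mean of 20.8 CPM in brain, so these genes differed in tissue pattern. Closest to Ir8a were AAEL019441 (0.940) and AAEL010522 (0.928), and closest to Ir76b AAEL003378 (0.979) and AAEL004143 (0.965). AAEL019441 had 86.0 to 173 CPM in olfactory tissue and a mean of 21.9 CPM in brain. Brain means of AAEL010522, AAEL003378 and AAEL004143 were 43.2, 46.6 and 22.2 CPM. Their highest olfactory libraries were lower, at 25.8, 19.3 and 19.7 CPM. Only 11 genes reached 0.9 with Ir8a and 12 with Ir76b. The pair closest to Orco, AAEL012987 and AAEL025065, had mean levels of 111 and 574.9 CPM in brain and at most 66.8 and 126.6 CPM in any olfactory library, unlike Orco.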

How the data were processed

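Total RNA was taken with Trizol and libraries were built with NEBNext Ultra II reagents, according to the labels. The deposited files hold the authors' raw counts per gene, 1 file per library, laid out as htseq-count writes them. STAR and HTSeq are named in the submitters' processing notes, while the sources used here do not give the build, annotation, versions or strand setting. Groups came from the sample titles. The *Anopheles* files were not used here.

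All 16 *Aedes* files contain overwritten text, in 44 stretches of 64 to 224 characters. Damaged lines were treated as missing, and 405 of 19804 genes (2.05%) unreadable in any file were left out. None of the 4 coreceptors lay within 1024 bytes before a stretch. Lines that name no gene held 29.9 to 58.2% of the reads per library and were left out of totals.

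CPM is the count over the summed gene counts of the library. Tests were edgeR quasi-likelihood F-tests (robust, TMM, filterByExpr, prior count default) over all genes, with Benjamini-Hochberg adjustment at 0.05. Approximate SEs were obtained by dividing each log2 change by the root of its F. Genes were named by rule: the 4 members and, for each, the 2 most correlated genes. The planned lists of related receptors and of marker genes could not be filled, because the reference table used here, of assembly AaegL5.0, does not hold these IDs. Alternatives were DESeq2, 2 other scalings, 2 other filters, the replicate number as a block, leaving out genes near damage and leaving out each library. The fits were tested on simulated data. Fits ran in edgeR 4.0.16 and DESeq2 1.42.0 under R 4.3.3; levels and exact intervals used scipy 1.17.1 with pandas 2.3.3 under Python 3.11.15. The comparison of Ir8a reads with those of the other 3 genes was added after the data were seen. The members and lists were chosen with earlier results of these data known.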

Additional observations from a re-analysis of the deposited data

How the results depend on the processing

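All 4 coreceptors kept their call as higher in olfactory tissue in every alternative that gave a value (23 each, 22 for Ir76b, which had under 50 counts on average). Log2 changes were 11.35 to 12.41 for Orco, 6.18 to 7.13 for Ir25a, 5.84 to 6.53 for Ir76b and 1.37 to 2.24 for Ir8a. The differences in the Ir8a ratios kept their direction with a pseudocount of 1 (9.50, 4.72 and 3.19) and with each library left out (9.59 to 10.13 against Orco, 4.58 to 4.98 against Ir25a, 3.44 to 3.83 against Ir76b). No coreceptor was called by clock time or by tissue and clock time in any alternative that gave an adjusted p. DESeq2 gave none for Ir8a and Ir76b by tissue and clock time. Without the only olfactory 12am library, no value was computed for Orco, Ir25a and Ir76b by olfactory clock time or for Ir25a by tissue and clock time, because their reported differences involve 12am. The filter at a mean of 50 counts gave none for Ir76b in any fit or for Ir25a in brain, and Orco and Ir76b were not tested by clock time in brain. Values changed sign for Ir8a in brain without 6pm replicate 1 (-0.069, with 0.91 without 6pm replicate 3 as the highest) and for the Ir25a tissue-by-time term at 12am without brain 6am replicate 1 (-0.31, with 1.98 without olfactory 6am replicate 3 as the highest). Counts over all genes moved more, for reasons that were not tested. A mean of at least 50 counts, which tests fewer genes, gave 3434 tissue calls. Calls by clock time in olfactory tissue were 46 with DESeq2, 344 with no filter, 3 with a mean of at least 50 counts, 3 on library totals, and 0 to 32 with 1 library left out (0 when either 12pm library or the third 6pm library was dropped, with 816, 290 and 256 genes below 0.05 unadjusted in edgeR, and 32 without 6am replicate 3). In brain they were 17 with DESeq2 and 0 to 1 with 1 library left out (0 without any 1 of the 6am and 12pm libraries, 107 to 221 genes below 0.05 unadjusted in edgeR), and DESeq2 gave 19 for tissue by time. Over all listed reads, a scale added after seeing the data, every mean CPM was lower. In olfactory tissue it was 506 for Orco, 74.9 for Ir25a, 32.2 for Ir8a and 3.95 for Ir76b, and in brain 0.231, 0.970, 11.8 and 0.0775.

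Whether the replicate numbers pair the libraries was not settled. Deviations from group means of same-numbered libraries correlated at -0.151 to 0.496 in brain, above 0.1 in 8 of 9 pairs. In olfactory tissue they correlated at -0.250 to 0.177, above 0.1 in 4 of 5 pairs. Brain groups of 2 give equal and opposite deviations, so pairs repeat values and are not independent. With the number as a block the clock time calls were 31 in olfactory tissue and 0 in brain (edgeR, 343 at an unadjusted p under 0.05), no call of a coreceptor changed, and the brain Ir25a difference moved from 0.98 to 0.15.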
